A study of Mus musculus with 16 samples.

Results

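The genes described are the 8 core components of the oxygen-sensing machinery that controls the hypoxia-inducible factors (HIF): the hydroxylase genes Egln1, Egln2, Egln3 and Hif1an, the ubiquitin ligase gene Vhl, and the HIF subunit genes Hif1a, Epas1 and Arnt. They were taken by symbol, without reference to their values, and all 8 were found among the 49585 gene identifiers counted in RNA sequencing libraries of mouse cells. All animals were C57BL/6 mice aged 8 to 12 weeks, the tissue was given as bones, and the design text describes sorted neutrophils. P2KO libraries (n = 4) came from mice labelled Vav:cre-PHD2f/f, in which the PHD2 gene Egln1 is to be removed by a recombinase driven in blood-forming cells. P2H2KO libraries (n = 4) came from mice labelled Vav:cre-PHD2/HIF2ff/ff, in which Egln1 and the HIF2α gene Epas1 are to be removed together. Each group had its own wild-type controls, P2WT (n = 4) and P2H2WT (n = 4), and whether these carried floxed alleles or the recombinase is not given in the sources used here. The labels do not say whether all 4 libraries of a group came from separate mice. The m and f suffixes of the titles occur in each group, which gives at least 2 mice a group, and p-values measure the spread between these samples. Suffix f was on 1 P2KO, 2 P2WT, 2 P2H2KO and 1 P2H2WT library. Vav-driven recombinases act in blood cells and are also known to recombine in endothelium.

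In air, PHD1, PHD2 and PHD3 (encoded by Egln2, Egln1 and Egln3) hydroxylate prolines of the HIF α subunits, the von Hippel-Lindau protein (Vhl) then binds them, and the subunits are degraded. FIH (Hif1an) hydroxylates an asparagine and blocks the binding of co-activators. When oxygen is short, HIF1α (Hif1a) or HIF2α (Epas1) persists, pairs with the constitutive partner ARNT (Arnt) and drives target genes, of which Egln3 and Egln1 are themselves known members. Much of this control acts on protein, which these counts do not measure.

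Total counts per library ranged from 23450746 to 28601284. The neutrophil label was checked against marker lists, with levels given as CPM (counts of a gene scaled to a fixed library total) relative to library sizes scaled by the trimmed mean of M values (TMM). The 15 neutrophil markers summed to between 35072 and 89577 CPM per library, with the defining genes S100a8, S100a9 and Ly6g present throughout. The 12 erythroid markers that could be matched (of 13) summed to between 25024 and 50948 CPM, so red-cell transcripts were of the same order as the neutrophil markers in libraries described as sorted. The 14 macrophage markers summed to between 1209.6 and 1971 CPM, the 14 bone stroma markers to between 195 and 1426 CPM, the 10 lymphoid markers to between 175 and 476 CPM and the 18 endothelial markers to between 127 and 354 CPM. No defining marker of these other cells was at 0 in any library. In such bulk libraries fewer cells of a type and less RNA per cell cannot be told apart.

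All 8 genes passed the filter on low counts in every comparison. The gene with the fewest counts was Epas1, with 66 in its lowest library (exact 95% Poisson interval 51.0 to 84.0, counting error only). The other 7 had at least 240 counts in every library.

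In GENCODE M21 on GRCm38 the hydroxylase genes lie at chr8:124908587-124949324 (Egln1, minus strand), chr7:27158658-27166802 (Egln2, minus strand), chr12:54178981-54203860 (Egln3, minus strand) and chr19:44562850-44576274 (Hif1an, plus strand). Vhl lies at chr6:113623959-113631633, Hif1a at chr12:73901375-73947530, Epas1 at chr17:86753700-86833410 and Arnt at chr3:95434388-95497240, all on the plus strand. All are protein-coding, and counts cover their exons as a whole.

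Scaled by exon length, as CPM per kilobase of exon, the median over all 16 libraries ranked Egln2 first at 16.4, followed by Hif1a at 14.5, Egln1 at 13.8, Vhl at 12.4, Arnt at 9.25, Hif1an at 7.84, Egln3 at 4.80 and Epas1 at 1.28. The neighbours in this order were not all separated. Egln2 lay above Hif1a in 13 of 16 libraries, Hif1a above Egln1 in 9, Egln1 above Vhl in 12 and Hif1an above Egln3 in 12. Vhl lay above Arnt, Arnt above Hif1an, and Egln3 above Epas1 in all 16. Among these 8 genes, transcripts of the HIF2α gene were thus the scarcest in each library, and those of the broadly expressed sensors Egln2 and Egln1 were among the most plentiful. Exon lengths were those of all annotated transcripts together, so the order depends on which transcripts these cells use.

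**Figure D1:**
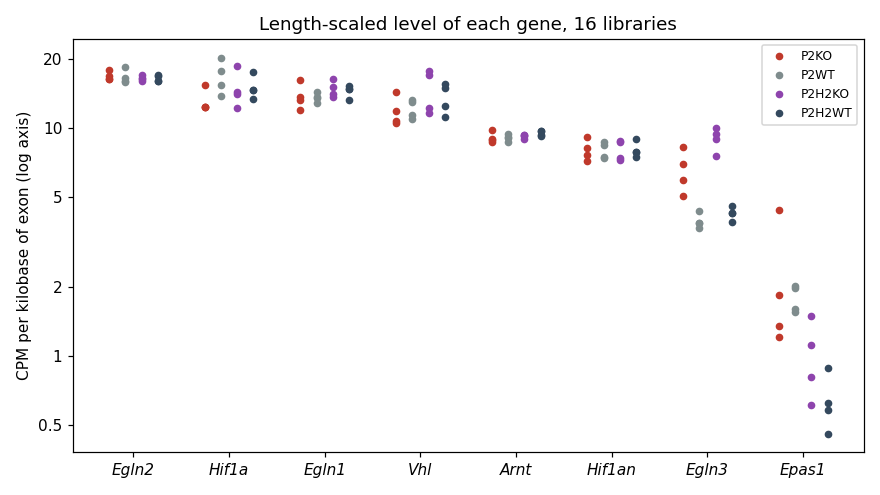
Length-scaled level (CPM per kilobase of exon, log axis) of each gene; each point is 1 of 16 libraries, coloured by group. Epas1 sits lowest, with medians of 1.28 against 4.80 for Egln3 and 16.4 for Egln2, and the points of Hif1a, Egln1 and Vhl overlap.

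The variation among libraries differed as much between genes as their levels did. Arnt was the steadiest on the CPM scale, with a coefficient of variation of 3.61% over the 16 libraries, followed by Egln2 at 4.29%. Hif1an and Egln1 varied by 8.36% and 8.44%, Hif1a and Vhl by 16.4% and 17.4%. Egln3 varied by 38.1% and Epas1 by 66.9%, and these are the genes whose values are followed in most detail below. The plot of levels by library shows that the spread of Egln3 lay between genotypes, whereas that of Epas1 lay mostly between the lines and in 1 library.

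**Figure D2:**
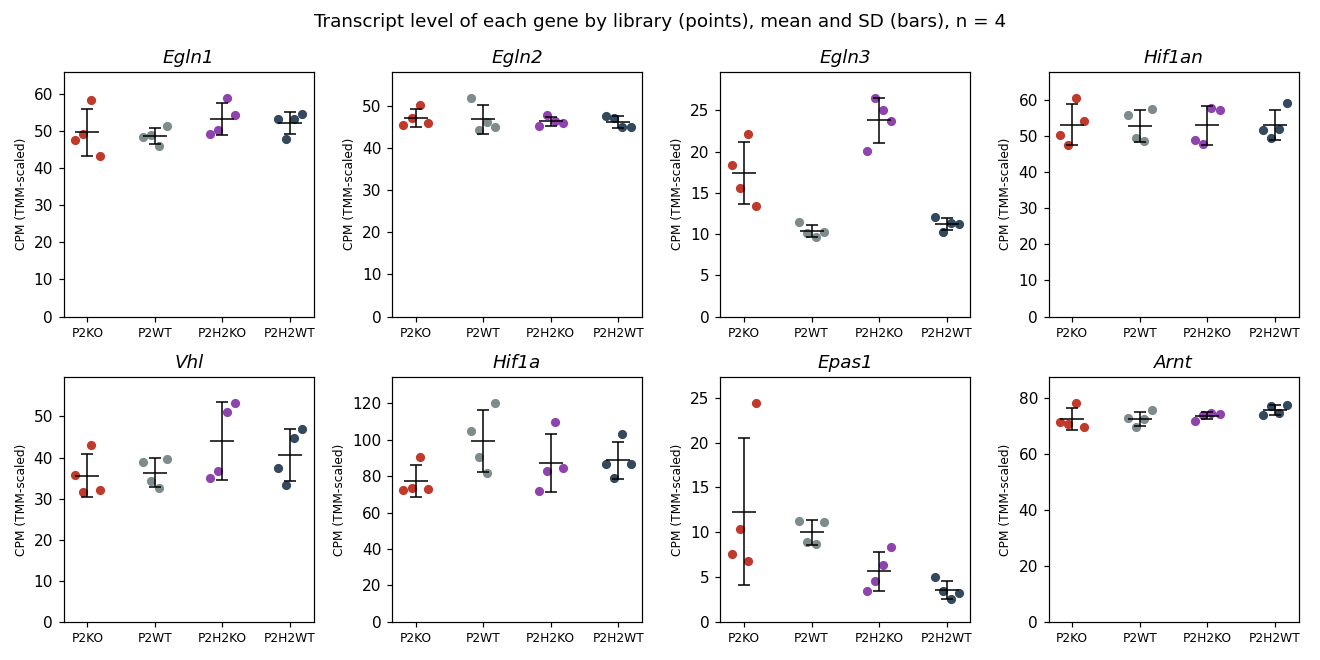
CPM of each gene in each library (points; 4 per group) with the group mean and SD (bars), each panel starting at 0. Egln3 is higher in P2KO and P2H2KO than in the respective controls without overlap, whereas Epas1 is lower in both groups of the P2H2 line and has 1 high P2KO library at 24.4 CPM.

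The deficient libraries were compared with their own controls to ask which parts of the machinery change at the transcript level when PHD2, or PHD2 and HIF2α, are labelled as absent. Egln3, which encodes the hypoxia-inducible prolyl hydroxylase PHD3, was the 1 gene of the 8 that was called in the P2H2 line, and it rose 2.12-fold there. The other 7 were not called in either line. In P2KO against P2WT 0 of 8 were called at an adjusted p under 0.05 by the edgeR quasi-likelihood test, against 0.0437% of all 13734 genes tested (6 genes). At an unadjusted p under 0.05 there were 2 (Egln3 and Hif1a), against 3.49% of all genes, and DESeq2 called 1 (Egln3), against 0.168%. In P2H2KO against P2H2WT 1 of 8 was called, against 0.0744% of 13435 genes. Egln3 was also the 1 gene of the 8 at an unadjusted p under 0.05, against 2.63%, and the 1 called by DESeq2, against 0.319%.

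Egln1 is the gene to be deleted in both deficient groups. The P2KO libraries had 47.5, 49.1, 58.4 and 43.2 CPM, and their P2WT controls had 48.4, 48.9, 45.9 and 51.3 CPM. In the other line they were 49.2, 50.3, 58.8 and 54.3 CPM in P2H2KO and 53.3, 47.9, 53.1 and 54.6 CPM in P2H2WT. All groups overlapped, and the highest library of each line was a deficient one. On the log2 scale P2KO differed by 0.038 (95% interval -0.17 to 0.25, edgeR adjusted p 1) and P2H2KO by 0.026 (-0.14 to 0.20, edgeR adjusted p 1). A fall of more than 0.17 on the log2 scale lies outside both intervals for reads summed over the whole gene. The counts do not separate exons, so a transcript that lacks only a floxed part would be counted here, and Egln1 gives no check of the genotype labels.

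Egln2, the gene of PHD1, did not vary with genotype beyond its narrow spread. It ranged from 45.5 to 50.2 CPM in P2KO, from 44.3 to 51.8 in P2WT, from 45.2 to 47.8 in P2H2KO and from 44.9 to 47.5 in P2H2WT. The log2 fold changes were 0.022 (95% interval -0.14 to 0.18) and 0.0071 (-0.12 to 0.14).

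Egln3 separated the genotypes in both lines. Its P2KO levels were 18.4, 15.6, 22.1 and 13.4 CPM, beside 11.5, 10.1, 9.71 and 10.2 CPM among the P2WT controls. In P2H2KO the values were 20.1, 26.5, 25 and 23.7 CPM, and in P2H2WT they were 12.1, 10.3, 11.3 and 11.2 CPM. Each deficient library lay above each of its controls, and no other of the 8 genes was separated in this way. Groups without overlap were seen for 2.25% of genes tested in the P2 line and 1.71% in the P2H2 line, and with the deficient group higher for 0.859% and 0.901%. The groups of controls were close to each other, with a log2 difference of P2WT from P2H2WT of -0.11 (95% interval -0.39 to 0.16).

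The log2 fold change of Egln3 was 1.08 (SE 0.10, 95% interval 0.86 to 1.31, edgeR adjusted p 0.00385) with both genes targeted and 0.75 (SE 0.15, 0.41 to 1.09, unadjusted p 0.000729, edgeR adjusted p 0.537) in the P2 line. Averaged over both lines in a fit of all 16 libraries it was 0.91 (SE 0.092, edgeR adjusted p 8.35e-05), a 1.88-fold rise, where 1 of 8 genes was called against 0.17% of 14080. Egln3 was again the 1 gene at an unadjusted p under 0.05 (3.72% of all genes) and the 1 called by DESeq2 (0.462%). This average uses the libraries of both single comparisons and is not a further replicate. The P2 call depended on the method: DESeq2 gave an adjusted p of 0.00878, and edgeR with the neutrophil score as a covariate 0.00146. None of the 8 P2 fits without 1 library called it (log2 fold change 0.62 to 0.86), whereas all 8 P2H2 fits did (1.03 to 1.16). The increase was not detectably different between the lines. The P2 effect minus the P2H2 effect was -0.34 (95% interval -0.73 to 0.046, edgeR adjusted p 0.999), with 0 of 8 genes called and 0% of all 14080 genes; 0 of 8 passed an unadjusted p under 0.05, against 1.51%, and DESeq2 called 0.

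The make-up of the prolyl hydroxylase transcripts differed accordingly. Egln3 made up 11.4% ± 0.36 (SD, n = 4) of the length-scaled sum of the 3 genes in P2WT and 12.0% ± 0.47 in P2H2WT. The share was 17.4% ± 2.17 in P2KO and 22.2% ± 1.66 in P2H2KO. On the log2 scale the ratio of Egln3 to Egln1 (CPM + 0.5) was higher by 0.68 in P2KO and by 1.02 in P2H2KO, with 4 of 4 deficient libraries above all controls in each line. The exact two-sided permutation p was 0.0286 in each, the smallest that 4 against 4 libraries can give, and 0.0857 after adjustment over the 6 ratios tested. The ratio of Egln2 to Egln1 differed by -0.0055 and -0.017 (adjusted p 0.971 for both, exact permutation).

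**Figure D3:**
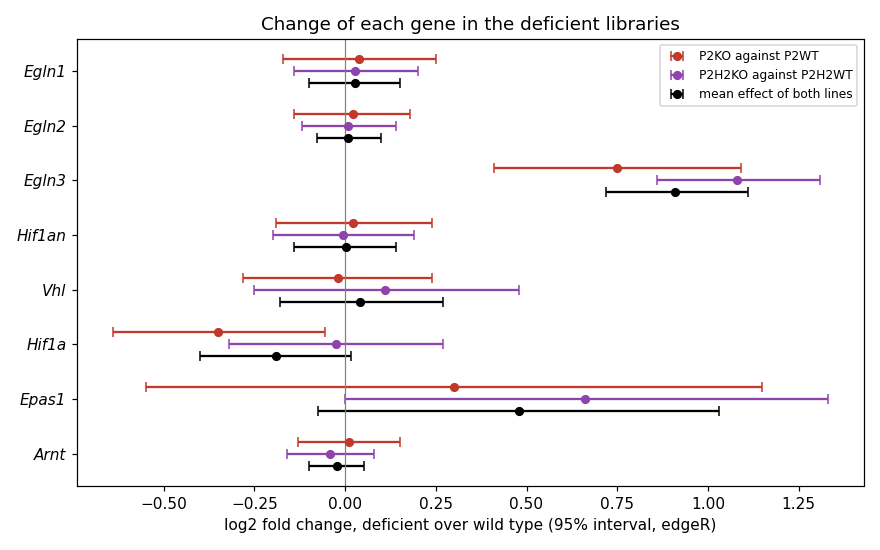
Log2 fold change of each gene with its 95% interval (edgeR) for P2KO against P2WT, for P2H2KO against P2H2WT and as the mean of both. The Egln3 intervals (0.41 to 1.09 and 0.86 to 1.31) lie to the right of 0, those of Egln1, Egln2, Hif1an and Arnt are narrow around 0, and that of Epas1 is wide.

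The promoters of the 3 prolyl hydroxylase genes are shown because the counts of 1 of these paralogues rose and those of the others did not. Egln1 is itself to be deleted in both deficient groups, so its whole-gene counts do not show whether its promoter responded. RefSeq windows (GRCm38.p6) of 300 bases, from 250 before to 50 after the transcription start, were matched for 7 of the 8 genes, Epas1 being the exception. HIF binds a core that was searched as ACGTG or GCGTG on both strands, overlapping matches counted separately. Matches are in capitals, 5′ to 3′ on the gene's strand, for Egln3 (chr12:54203825-54204124, minus strand), Egln1 (chr8:124949205-124949504, minus strand) and the upstream start of Egln2 (chr7:27166753-27167052, minus strand).
Egln3: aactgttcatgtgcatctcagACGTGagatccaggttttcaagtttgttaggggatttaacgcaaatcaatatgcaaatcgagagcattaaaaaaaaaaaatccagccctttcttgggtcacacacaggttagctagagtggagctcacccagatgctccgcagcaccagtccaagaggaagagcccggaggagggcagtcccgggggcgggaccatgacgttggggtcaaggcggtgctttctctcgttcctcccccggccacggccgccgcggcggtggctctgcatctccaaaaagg
Egln1: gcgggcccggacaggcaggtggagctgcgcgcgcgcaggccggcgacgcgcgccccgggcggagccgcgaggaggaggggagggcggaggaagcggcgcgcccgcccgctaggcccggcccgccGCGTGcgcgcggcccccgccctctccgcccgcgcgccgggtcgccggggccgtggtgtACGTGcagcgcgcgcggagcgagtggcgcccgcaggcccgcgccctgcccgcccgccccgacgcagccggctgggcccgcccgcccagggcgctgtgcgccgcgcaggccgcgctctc
Egln2: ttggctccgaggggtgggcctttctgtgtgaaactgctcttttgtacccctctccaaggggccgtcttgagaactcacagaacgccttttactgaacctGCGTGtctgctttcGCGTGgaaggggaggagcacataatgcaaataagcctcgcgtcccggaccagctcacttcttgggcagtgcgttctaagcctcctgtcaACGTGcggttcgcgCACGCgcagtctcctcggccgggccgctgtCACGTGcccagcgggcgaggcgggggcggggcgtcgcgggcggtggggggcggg
Egln3 had 1 match, an ACGTG that begins at position -229. Egln1 had 2, a GCGTG at -126 and an ACGTG at -68, and Egln2 had 6, with a palindromic CACGTG over the start site counted on both strands. Of 32817 promoter windows, 43.8% held at least 1 match and 8.93% at least 3. The other RefSeq start of Egln2 had 1 match, as Egln3 did. Of the other genes with a window, Hif1a had 3 matches, Arnt 1, and Vhl and Hif1an 0. A match is a run of letters and not a shown binding site, and enhancers outside the window were not examined.

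Hif1an, which encodes FIH, was level across all groups. It ranged from 47.5 to 60.4 CPM in P2KO, from 48.5 to 57.3 in P2WT, from 47.7 to 57.7 in P2H2KO and from 49.4 to 59.0 in P2H2WT, with log2 fold changes of 0.021 (95% interval -0.19 to 0.24) and -0.0050 (-0.20 to 0.19). Of the 4 hydroxylase genes Egln3 alone was called in these tests.

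Vhl, the substrate-recognition part of the ligase, spread widely within each group. Its P2KO levels were 35.7, 31.5, 43.0 and 32.1 CPM, and its P2WT levels were 38.9, 34.3, 32.6 and 39.6 CPM. The P2H2KO libraries had 34.9, 36.7, 51.0 and 53.2 CPM, and the P2H2WT libraries had 37.5, 33.2, 44.7 and 46.9 CPM. The groups overlapped in both lines, and the log2 fold changes of -0.019 (95% interval -0.28 to 0.24) and 0.11 (-0.25 to 0.48) were within the spread.

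This spread of Vhl ran against the erythroid marker level of the libraries. The erythroid score, the mean log2(CPM + 1) of the 12 markers, correlated with log2(CPM + 1) of Vhl with r = -0.954 over the 8 libraries of the P2 line (exact permutation p 0.000769, adjusted p 0.0212 over 64 relations) and r = -0.846 in the P2H2 line (exact permutation p 0.00253, adjusted p 0.0324). Spearman's coefficient was -0.952 in both lines (exact permutation p 0.00114, adjusted p 0.0365). Without the 2 libraries farthest from the median score, r was -0.868 and -0.915. With the neutrophil score the relation had the opposite sign, r = 0.830 (exact permutation p 0.0106, adjusted p 0.0667) and 0.892 (exact permutation p 0.00211, adjusted p 0.0324), with rho 0.738 and 0.833 (adjusted p 0.244 and 0.141, exact permutation). Without the 2 farthest libraries those r were 0.652 and 0.743. Both scores come from the same libraries, so the opposite sign is not independent of the erythroid relation. These 64 relations, of 8 genes with 4 marker lists in 2 lines, were chosen after the values had been seen.

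Among the hydroxylase genes Egln1 and Hif1an had negative coefficients with the erythroid score in both lines, whereas Egln2 had r = -0.471 and 0.160 (exact permutation p 0.236 and 0.733; rho -0.0238 and 0.310). Egln1 correlated with the erythroid score with r = -0.833 in the P2 line (exact permutation p 0.00915, adjusted p 0.0651; rho -0.595, exact permutation p 0.132) and -0.933 in the P2H2 line (exact permutation p 0.000992, adjusted p 0.0212; rho -0.905, exact permutation p 0.00456). In the P2 line it rested on the 2 libraries farthest from the median, without which r was -0.340, against -0.819 in the P2H2 line. For Hif1an the values were -0.876 and -0.756 (exact permutation p 0.00521 and 0.0189, adjusted p 0.0556 and 0.0864; rho -0.905 and -0.762, adjusted p 0.0584 and 0.235), and -0.639 and -0.797 without the 2 farthest libraries. Egln3 had coefficients of -0.253 and -0.430 (exact permutation p 0.541 and 0.298; rho -0.190 and -0.429), and its log2 fold change was 0.78 and 1.04 with the erythroid score in the model and 0.80 and 1.08 with the neutrophil score. These coefficients pool both genotypes, whose Egln3 levels did not overlap, so they do not show how Egln3 followed the markers within a genotype. In P2KO, Egln3 was highest (22.1 CPM) at the highest neutrophil score (11.01) and lowest (13.4 CPM) at the lowest (9.89). In P2H2KO its highest level (26.5 CPM) was at the lowest neutrophil score (10.45). Relations of Egln3 within groups were not tested. With the macrophage score Egln3 had r = -0.797 in P2 and -0.866 in P2H2 (exact permutation p 0.0185 and 0.00841, adjusted p 0.0864 and 0.0651), with rho -0.595 and -0.881 (adjusted p 0.423 and 0.0772, exact permutation). Without the 2 farthest libraries these r were -0.503 and -0.820. They too pool both genotypes, so a relation between libraries cannot be told apart from the genotype difference of Egln3. In both lines 13 of 14 macrophage markers were lower in the deficient libraries, with medians of -0.29 and -0.46 (log2) and 0 called. Of all genes, 57.8% (P2) and 50.5% (P2H2) were higher. In the mean of both lines 14 of 14 markers were lower. By edgeR 12 of them had an unadjusted p under 0.05 (3.72% of all genes) and 1 was called (0.17%). The part of these markers in the level of Egln3 was not tested.

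**Figure D4:**
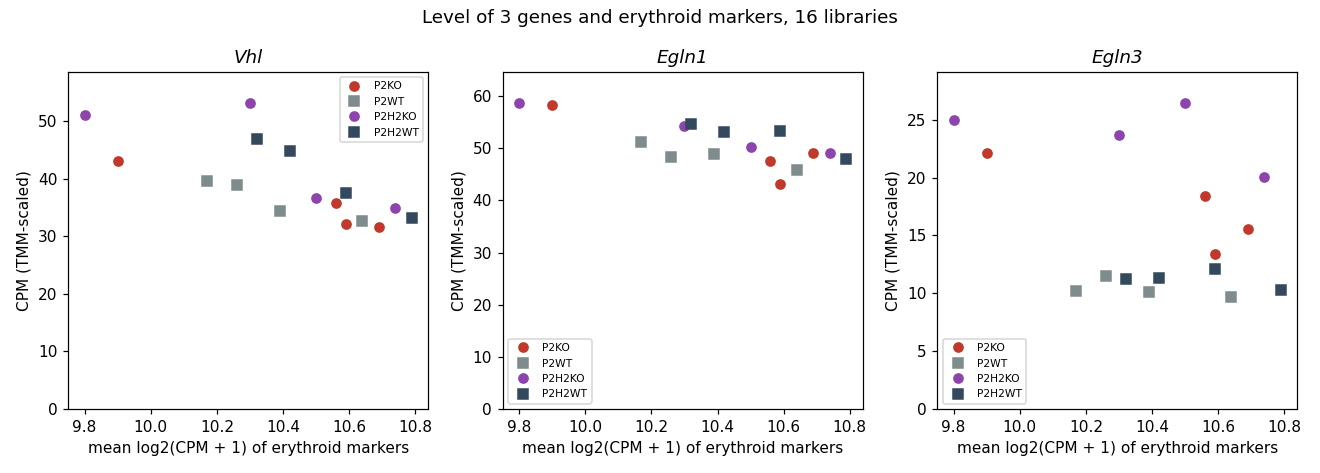
CPM of Vhl, Egln1 and Egln3 against the mean log2(CPM + 1) of the erythroid markers in 16 libraries; circles are deficient and squares wild-type libraries. Vhl falls from left to right (r = -0.954 and -0.846 within the lines), whereas Egln3 divides into deficient libraries from 13.4 to 26.5 CPM and controls from 9.71 to 12.1 CPM.

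Hif1a, the α subunit gene best known for control of glycolysis in myeloid cells, had the only other unadjusted p under 0.05 between genotypes. The P2KO libraries stood at 72.6, 73.3, 90.5 and 73.0 CPM and the P2WT libraries at 105, 90.7, 81.6 and 120.0 CPM. Of the P2KO values 3 were below the lowest control, and the highest, 90.5 in replicate 6, lay between the controls. The log2 fold change was -0.35 (95% interval -0.64 to -0.056, unadjusted p 0.0245, edgeR adjusted p 1). It ranged from -0.43 to -0.25 when single libraries were left out, and 4 of those 8 fits had an unadjusted p under 0.05. In the P2H2 line Hif1a was at 71.9, 82.7, 109.8 and 84.7 CPM in P2H2KO and 86.6, 79.0, 103 and 86.6 CPM in P2H2WT, which gave a log2 value of -0.026 (-0.32 to 0.27). The difference between the lines, -0.33 (-0.75 to 0.081, edgeR adjusted p 0.999), did not pass the test. Leaving out single libraries gave values of this difference between -0.42 and -0.20 in 16 edgeR fits. Of these fits 3 had an unadjusted p under 0.05 and 0 called it. The weakest value, -0.20, came when P2H2KO replicate 15 was omitted. The value of -0.42 came when P2KO replicate 6, P2WT replicate 4 or P2H2KO replicate 11 was omitted. With a covariate the difference was -0.19 (title suffix), -0.16 (erythroid score) and -0.26 (neutrophil score). The macrophage markers moved in the same direction in P2KO, with 13 of 14 lower, 3 of them at an unadjusted p under 0.05 (3.49% of all genes). Their sums were 1267 to 1772 CPM against 1632 to 1971 CPM in P2WT. In the P2H2 line 13 of 14 were also lower, 12 at an unadjusted p under 0.05 (2.63% of all genes) and 0 called. There the sums were 1209.6 to 1471 against 1525 to 1809 CPM. In the mean of both lines 1 of the 14 was called. With the macrophage score Hif1a had r = 0.260 in P2 and -0.224 in P2H2 (exact permutation p 0.533 and 0.584). With the erythroid score it had r = -0.698 and -0.807 (exact permutation p 0.0524 and 0.0145, adjusted p 0.162 and 0.0774). Without the 2 farthest libraries the erythroid r were -0.891 and -0.573. The part of either cell type in the genotype difference of Hif1a was not tested.

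Arnt, the shared dimer partner, was the flattest of the 8. It ranged from 69.6 to 78.1 CPM in P2KO, from 69.5 to 75.6 in P2WT, from 71.7 to 74.7 in P2H2KO and from 74.0 to 77.4 in P2H2WT. The log2 fold changes were 0.0096 (95% interval -0.13 to 0.15) and -0.041 (-0.16 to 0.079), so a change by more than 0.16 in either direction lies outside both intervals.

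Epas1, which encodes HIF2α and is known for high expression in endothelium, was low in all groups and was not lower where its deletion was labelled. The P2H2KO libraries had 3.42, 4.51, 6.29 and 8.39 CPM and the P2H2WT libraries 4.97, 3.47, 2.55 and 3.23 CPM. The groups overlapped, and 2 P2H2KO libraries lay above every control. These 2 were the P2H2KO libraries with suffix f, which 1 control also carried. The log2 fold change was 0.66 (95% interval -0.0011 to 1.33, unadjusted p 0.0503, edgeR adjusted p 1). The lower end of this interval, -0.0011 on the log2 scale, concerns reads summed over the gene in the whole library. Such reads again would include transcripts that lack only a floxed part, and a fall within neutrophils alone was not tested. Without single libraries the log2 fold change ranged from 0.42 (without P2H2KO replicate 17) to 0.87 (without P2H2WT replicate 13). Of those 8 edgeR fits 3 had an unadjusted p under 0.05 and 0 called it. With the neutrophil score as a covariate the log2 fold change was 0.41. With the title suffix as a covariate it was 0.53, and it was positive in every fit of this comparison.

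Without a label for its deletion, the P2KO libraries had 7.58, 10.4, 6.76 and 24.4 CPM of Epas1, and the P2WT libraries had 11.3, 8.94, 8.70 and 11.1 CPM. Replicate 9 of P2KO, the 1 library of its group with suffix f, stood above all other libraries of the series. Of the other 3 P2KO libraries 2 lay below all controls. The log2 fold change of 0.30 (95% interval -0.55 to 1.15, edgeR adjusted p 1) became -0.27 without replicate 9 and 0.38 with the title suffix as a covariate. The ratio of Epas1 to Hif1a differed between genotypes by 0.45 in the P2 line (exact permutation p 0.429, adjusted p 0.643) and by 0.60 in the P2H2 line (exact permutation p 0.114, adjusted p 0.229) on the log2 scale. Without P2KO replicate 9 the first value was 0.044, and without P2H2KO replicate 17 the second was 0.39.

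The larger contrast of Epas1 was between the lines. Each P2WT library lay above each P2H2WT library, where 7.77% of genes had such groups without overlap in either direction, and the log2 difference was 1.49 (SE 0.38, 95% interval 0.69 to 2.29), or 2.81-fold. It missed the call (unadjusted p 0.00122, edgeR adjusted p 0.106), with 0 of 8 genes called against 0.227% of 14080. DESeq2 gave an adjusted p of 0.00699 (1 of 8, against 2.07%), and the edgeR fit without P2KO replicate 9 gave 0.011. Epas1 was the 1 gene of the 8 at an unadjusted p under 0.05. The endothelial and bone stroma markers differed in the same direction between the controls. Of 18 endothelial markers 17 were higher in P2WT, 14 of them at an unadjusted p under 0.05 (against 10.04% of all genes) and 1 called, with a median log2 difference of 1.28 against -0.0060 for all genes. All 14 bone stroma markers were higher, with a median of 1.30 and 1 called. The line cannot be told apart from the table, the breeding or the preparation it came with.

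Within the P2 line Epas1 also followed the endothelial markers from library to library. The mean log2(CPM + 1) of the 18 endothelial genes correlated with Epas1 with r = 0.975 over 8 libraries (exact permutation p 0.000372, adjusted p 0.00372 over 10 relations) and rho = 0.929 (exact permutation p 0.00223, adjusted p 0.0223). Without the 2 libraries farthest from the median r was 0.919, and with the group means removed it was 0.991. P2KO replicate 9, high in Epas1, had summed endothelial markers of 354 CPM, against 171 to 216 CPM in the other 7 libraries of the line. Kdr, the gene of a receptor for vascular growth factor, had 10.3 ± 7.31 CPM (SD, n = 4) in P2KO, with a highest library of 21.2 CPM, against 7.74 ± 1.20 CPM in P2WT. The other defining genes were Cdh5, at 18.3 ± 6.11 against 14.8 ± 1.68 CPM, and Pecam1, at 46.0 ± 10.4 against 46.6 ± 4.94 CPM. Of the 18 markers 15 were higher and 3 lower in P2KO. By edgeR 1 had an unadjusted p under 0.05, against 3.49% of all genes, and 0 were called.

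In the P2H2 line the relation was r = 0.712 (exact permutation p 0.0472, adjusted p 0.236) and rho = 0.286 (exact permutation p 0.501). It rested on the 2 libraries farthest from the median, without which r was -0.794. Endothelial sums there covered only 127 to 155 CPM. The P2H2KO sums of 147 to 155 CPM stood beside P2H2WT sums of 127 to 149 CPM, in the direction of Epas1, and 14 of 17 endothelial markers tested were higher in P2H2KO (3 at an unadjusted p under 0.05, 0 called). The macrophage, erythroid, bone stroma and lymphoid lists had r between 0.336 and 0.540 with Epas1 in the P2 line and between -0.488 and 0.442 in the P2H2 line, with adjusted p values between 0.407 and 0.422 from exact permutation. Their rho lay between -0.357 and 0.738, the highest for the macrophage list in the P2 line (exact permutation p 0.0458, adjusted p 0.229). With the group means removed, their r lay between 0.327 and 0.802 in the P2 line, again highest for the macrophage list. In the P2H2 line those r lay between -0.383 and 0.539. How much of the Epas1 signal came from cells other than neutrophils was not tested.

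**Figure D5:**
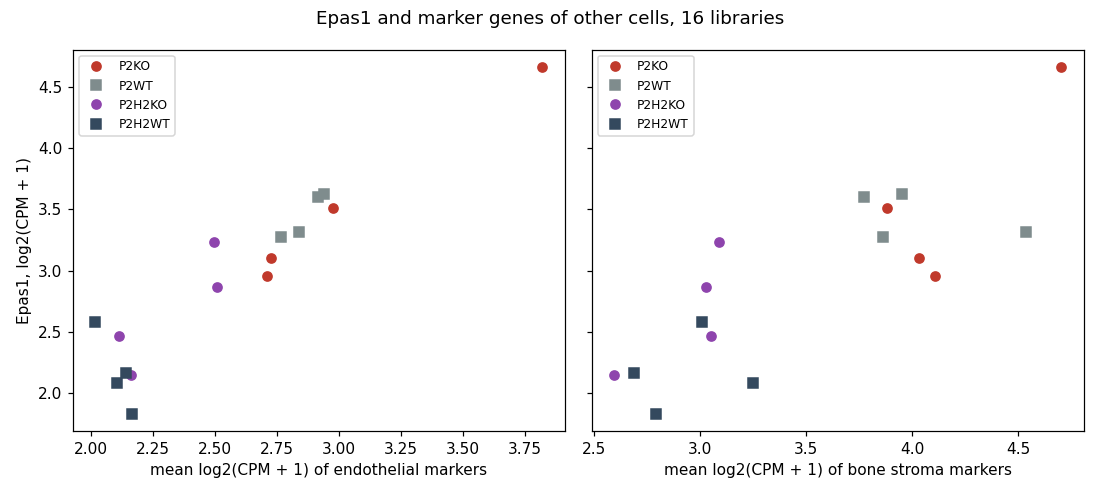
Epas1 against the mean log2(CPM + 1) of endothelial (left) and bone stroma (right) markers, both axes on log2 scales, with 16 libraries coloured by group. The P2 libraries line up with the endothelial markers (r = 0.975), the P2H2 libraries lie lower on both marker axes and overlap with P2KO on the Epas1 axis (highest P2H2KO 8.39 CPM, lowest P2KO 6.76 CPM), and the point at the top right is P2KO replicate 9.

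The genes whose profile over the 16 libraries was most like that of each of the 8 were ranked among 11454 genes by Pearson's r of log2(CPM + 1), as a description. For Egln3 they were Bnip3 (r = 0.975), which encodes a mitophagy receptor, Tpi1 (0.957), a glycolytic isomerase gene, and Apba3 (0.949), which encodes an adaptor reported to act on FIH. Bnip3 and Tpi1 stayed among the top 3 with the line means subtracted, where Pfkl (0.946) took the third place. For Epas1 they were Plpp3 (0.980), Adamts9 (0.961) and Flt4 (0.959), the last a receptor gene of lymphatic and sinusoidal endothelium. With the line means subtracted Plpp3 (0.964) stayed first, followed by Adcy4 (0.911) and the coagulation factor gene F8 (0.910).

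The nearest profiles of the remaining genes were other transcripts. For Vhl they were Aprt (0.977), Srd5a3 (0.972) and Rsu1 (0.971), for Egln1 Foxn2 (0.937), Naif1 (0.935) and Trappc4 (0.933), and for Hif1an Gpr107 (0.929), Spty2d1 (0.924) and Dennd2a (0.924). For Hif1a they were Tmed5 (0.917), Erlin2 (0.913) and Dtx2 (0.907), none of which stayed in the top 3 with the line means subtracted. Arnt had Lig3 (0.876), Cdk9 (0.870) and Gda (0.849), and Egln2 had Terf2ip (0.781), Cage1 (0.749) and Zfyve26 (0.737). All these profiles share the same 16 libraries and their depth.

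The wider machinery of 24 genes, including HIF relatives, co-activators, ligase subunits and other factors that act on the α subunits, showed no called member. Of 22 tested, 0 were called and 0 had an unadjusted p under 0.05 in either line by edgeR. The middle of the list lay at log2 fold changes of 0.021 (P2) and 0.0093 (P2H2), against 0.020 and 0.0011 for all genes. Cul2, the scaffold of the VHL ligase, had a log2 fold change of 0.052 (SE 0.060) in the P2 line and -0.12 (SE 0.063) in the P2H2 line. Hif3a, the gene of the third α subunit, had 0.33 (SE 0.24) and 0.18 (SE 0.44) and was scarce, at 2.66 CPM on average in P2KO. Sirt1, a deacetylase gene, had the smallest p of the list in the P2 line (log2 fold change 0.11, unadjusted p 0.0687, edgeR adjusted p 1). Others among the 5 smallest p values of a line were Wdr83, Stub1 and Cited4 at 0.14, 0.075 and 0.17 in the P2 line, and Cited2, Rnf7, Siah1a and Siah2 at 0.15, -0.10, -0.11 and 0.11 in the P2H2 line.

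Genes known to be transcribed by HIF, a list of 42 without Egln3, lay mostly higher beside it. In the P2 line 36 of 40 tested were higher and 4 were called, all of them higher (Ankrd37, Aldoc, Pfkl and Tpi1), and the list's median was 0.25 (log2). In the P2H2 line 35 of 39 were higher and 7 were called, all of them higher (the same 4 with Bnip3, P4ha1 and Pdk1), with a median of 0.36. Of all genes, 57.8% and 50.5% were higher, with medians of 0.020 and 0.0011, and 0.0437% and 0.0744% were called. The 0.75 and 1.08 of Egln3 stood beside 0.70 and 0.83 for Tpi1, 0.75 and 0.92 for the phosphofructokinase gene Pfkl, 0.70 and 0.96 for P4ha1, which encodes a collagen prolyl hydroxylase, and 0.96 and 1.21 for Bnip3. Pdk1, a kinase gene that limits pyruvate oxidation, had 0.57 and 0.70. Larger changes were those of Aldoc, 1.52 and 1.80, and of Ankrd37, 2.73 and 2.70. The P2 effect minus the P2H2 effect was below 0 for 32 of 40 genes, with a median of -0.15. Of these 40 genes 0 were called and 1 had an unadjusted p under 0.05, against 1.51% of all genes. The same difference was below 0 for 15 of 15 neutrophil markers (median -0.23) and above 0 for 12 of 12 erythroid markers (median 0.25), with 0 called in either list, and their part in it was not tested. The list was written with earlier results of these data known, so its direction is no independent evidence.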

How the data were processed

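RNA sequencing reads per gene were measured in 16 mouse libraries, 4 in each of 4 groups, with groups and replicate numbers taken from the titles. The authors deposited 2 tables of raw counts, 1 per line, with 49585 Ensembl identifiers and 8 libraries each, and whole-number values without normalization. HTSeq and the build mm10 are named in the submitters' processing notes. The aligner, the annotation release and the strand setting are not given in the sources used here. The m and f title suffixes matched Ddx3y and Xist counts in 16 of 16 libraries. Within groups the 24 pairs of libraries differed by at least 11.5 chi-square per degree of freedom. Symbols came from GENCODE M21 names (49326 identifiers matched), and exon lengths from that annotation on GRCm38. Exons of Hif1a overlap Gm15283 over 5.60% of their bases and Gm49321 over 2.51%, and those of Egln2 overlap Cyp2t4 over 0.393%. Gm15283 had at most 3 counts and Cyp2t4 at most 1.

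Counts were filtered with filterByExpr, scaled with TMM and tested with the quasi-likelihood test of edgeR 4.0.16 in R 4.3.3, two-sided, with Benjamini-Hochberg adjustment over all genes and a threshold of 0.05. P2KO against P2WT and P2H2KO against P2H2WT were each fitted on 8 libraries, and the difference of the effects, their mean and P2WT against P2H2WT on all 16. Intervals come from the quasi-likelihood F statistic. Ratios (pseudocount 0.5) and correlations of log2(CPM + 1) used exact permutation with numpy 2.4.6. Alternatives were RLE and upper-quartile scaling, DESeq2 1.42.0, no filter, a minimum of 10 counts per library, the title suffix as a covariate, a fit of all 16 libraries, pseudocounts of 2 and 0.25, and each library left out. Covariates for the neutrophil and erythroid scores were added after the data had been seen. Named genes were the 8, their 3 nearest profiles (mean of at least 1 CPM, no predicted genes), called genes and the 5 smallest p values of the machinery and target lists per line, and defining markers. The genes, lists and rules were chosen with earlier results of these data known. The fits were tested on simulated data.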

Additional observations from a re-analysis of the deposited data

Results flagged for a closer look

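Of the 32 sets of 4 libraries examined (8 genes in 4 groups), 1 held a library far from the others. Hif1a in P2KO stood at 90.5 CPM in replicate 6, with the next library at 73.3 CPM, a gap of 0.956 of the range of the group, above the 95% limit of Dixon's criterion for 4 values. Chance alone flags about 1 in 20 groups. The same library had the highest neutrophil marker sum of its group, 79105 CPM, the lowest erythroid marker sum, 25024 CPM, and the highest levels of Egln1, Egln2, Egln3, Hif1an, Vhl and Arnt. The part of this cell content in its level of Hif1a was not tested.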

How the results depend on the processing

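The rise of Egln3 kept its direction under all alternatives, and its call in the P2H2 line and in the mean of both lines held in each of them. The number of the 8 genes called in P2KO against P2WT went from 0 to 1 with DESeq2 and to 1 with the neutrophil score as a covariate (Egln3 in both). In P2WT against P2H2WT it went from 0 to 1 with DESeq2 (Epas1), and over the fits without 1 library it ranged from 0 to 1 (1 without P2KO replicate 9). Genes near 0 changed sign without a call. Arnt in the P2 line became -0.00025 with RLE, -0.00043 with DESeq2 and -0.0019 in the fit of all 16 libraries. In the P2H2 line Egln1 became -0.0057 with the suffix as a covariate, -0.024 with the neutrophil and -0.032 with the erythroid score, Egln2 -0.0044 without a filter, and Vhl -0.0037, -0.059 and -0.030 with the suffix, neutrophil and erythroid covariates. Vhl in the P2 line became 0.015 and 0.014 with the neutrophil and erythroid scores. Without single libraries the log2 fold change in the P2 line ranged from -0.050 to 0.095 for Egln1, -0.0082 to 0.079 for Egln2, -0.047 to 0.071 for Hif1an, -0.12 to 0.035 for Vhl, -0.27 to 0.50 for Epas1 and -0.028 to 0.026 for Arnt. In the P2H2 line it ranged from -0.023 to 0.061 for Egln1, -0.0092 to 0.023 for Egln2, -0.047 to 0.046 for Hif1an and -0.15 to 0.055 for Hif1a. The ratio of Egln2 to Egln1 had a lowest value of -0.056 and a highest of 0.046 for P2, and -0.057 and 0.033 for P2H2. Without the 2 libraries farthest from the median, r of Epas1 with the endothelial markers in the P2H2 line became -0.794, with the macrophage markers in that line -0.0229, with the bone stroma markers in the P2 line -0.784, and with the lymphoid markers 0.747 in the P2 and -0.0883 in the P2H2 line. The cause of these changes was not tested. The erythroid score as a covariate gave Egln3 an adjusted p of 0.0560 in the P2 line and the fit of all 16 libraries 0.0504 (edgeR). The number of all genes called between P2WT and P2H2WT was 32, but 0 with at least 10 counts in every library, 9 without a filter, 124 with the suffix, 291 with DESeq2, 0 with the neutrophil and 505 with the erythroid score. In the P2 line 6 genes became 23 with DESeq2, 10 in the fit of all 16 libraries, and 14 and 11 with the neutrophil and erythroid scores, and in the P2H2 line 10 became 42 with DESeq2. For the mean of both lines 24 became 65 with DESeq2, 44 and 50 with the scores. No paired analysis was possible because the groups have no replicate number in common. The low counts of Epas1 limit what its fold changes can show.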
